A study of Mus musculus with 11 samples.

Results

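The MHC class II presentation genes of the mouse were followed across 3 groups of bone marrow cells that received the same mutant receptor alone or together with a mutant transcription factor in different orders. The 10 genes were chosen by symbol for their role in class II presentation. They are the invariant chain gene Cd74, the transactivator gene Ciita, the classical chain genes H2-Aa, H2-Ab1 and H2-Eb1, the H2-DM genes H2-DMa, H2-DMb1 and H2-DMb2, and the H2-DO genes H2-Oa and H2-Ob. All 10 were found among the 51912 genes of the deposited count table, and all 10 were among the 15703 genes with enough counts to be tested.

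RNA-seq was performed on lineage-negative C57BL/6 bone marrow cells that carried 2 retroviral vectors, a constitutive one marked by GFP and one with a red fluorescent marker whose insert was expressed only after Cre recombination, which 4-hydroxytamoxifen induces in Rosa26 ERT2-Cre marrow. In the CSF3R-only group (n = 4) the constitutive vector carried CSF3R with an activating point mutation and the inducible vector was empty. CSF3R-first cells (n = 3) carried the same CSF3R vector and inducible CEBPA with a mutation of its C-terminal, DNA-binding region. CEBPA-first cells (n = 4) carried constitutive mutant CEBPA and inducible mutant CSF3R. Every group therefore held mutant CSF3R, and no group with wild-type cells or with mutant CEBPA alone was part of these samples. Cells positive for both markers were sorted and cultured for 48 h with 4-hydroxytamoxifen in serum-containing medium without added cytokines. Replicates are called by the letters A to D of their labels, and as the labels do not say whether they came from separate animals, p-values measure only the spread between these samples.

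A class II molecule is a pair of an alpha and a beta chain that presents peptides from endosomes to CD4+ T cells. In C57BL/6 mice the classical molecule is I-A, made from H2-Aa and H2-Ab1. The invariant chain, encoded by Cd74, occupies the groove and guides the pair to the endosome, where H2-DM exchanges the last invariant chain fragment for a peptide and H2-DO inhibits H2-DM. Ciita binds no DNA itself: it is recruited to the class II promoters by a complex of RFX, CREB and NF-Y factors that sits on the so-called X and Y boxes. B cells and dendritic cells express the set at high levels, and monocytes and macrophages express it at a level that interferon gamma raises.

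Stretches with bases of both boxes are shown for 5 genes, since these boxes are where the complex that recruits Ciita binds. They lay outside the annotated exons of their own gene but for the last 10 bases of the H2-Oa stretch, and the H2-DMb2 stretch lies within the annotated span of its gene. A stretch was shown only if it was found on the strand of the gene and lay mostly outside that gene's exons, so this position follows from the choice. Exons of other genes were not checked. H2-DMb1, whose window also held bases of both boxes, is not shown. The sequences were read from RefSeq windows of GRCm38.p6 that run from 250 bases before to 50 bases after a gene's start, given on the strand of the gene. In capitals are the Y box in its reverse form ATTGG and, before it, either the X box (CTAG, any 2 bases, AC, any 2 bases, ATG) or only the bases AAC where the full X box was not matched.
H2-Oa (chr17:34092290-34092349, plus strand): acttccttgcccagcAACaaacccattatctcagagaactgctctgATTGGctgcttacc
H2-DMb2 (chr17:34145113-34145172, plus strand): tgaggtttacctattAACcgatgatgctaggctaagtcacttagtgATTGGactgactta
H2-Ob (chr17:34238802-34238861, plus strand): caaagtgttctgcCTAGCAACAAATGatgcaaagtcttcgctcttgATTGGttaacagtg
H2-Aa (chr17:34287858-34287917, minus strand): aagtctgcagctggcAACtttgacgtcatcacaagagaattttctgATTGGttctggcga
H2-Eb1 (chr17:34305762-34305821, plus strand): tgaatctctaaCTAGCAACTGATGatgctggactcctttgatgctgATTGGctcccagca

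Windows were given for 7 of the 10 genes, 8 windows in all since H2-DMa had 2. The X box letters, searched on both strands, were in 3 of the 8 windows, those of H2-DMb1, H2-Ob and H2-Eb1, and in 0.137% of all 32851 windows of this length. CCAAT, the Y box, was in 7 of 8 windows and in 37.4% of all. AAC followed by ATTGG after 25 to 30 bases, which overlaps the Y box by construction, was in 6 of 8 windows and in 3.63% of all. H2-DMa was, of the genes with a window, the one without that pair, and Cd74, Ciita and H2-Ab1 had no window. The X box letters and the gap were set after the windows of these genes had been seen, so the shares are a description.

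Libraries held 47905747 to 72268346 counts, and the limit of 3 counts that a gene without any count could still have corresponds to 0.0383 to 0.0648 CPM. Levels are given as CPM, counts scaled to a common library size after TMM normalization. For the mouse Cebpa gene the CSF3R-only cells had a mean of 87.2 ± 6.98 CPM (SD), the CSF3R-first cells of 131 ± 10.4 CPM and the CEBPA-first cells of 167 ± 6.12 CPM. For the mouse Csf3r gene the means were 846 ± 94.9, 516 ± 118 and 154 ± 16.1 CPM in the same order, and the log2 fold change between the outer groups was -2.46 ± 0.13 (adjusted p = 8.2e-09, edgeR). Whether reads of the vector inserts were counted under the mouse genes is not given in the sources used here, so neither gene checks the group labels. CSF3R-first replicate A stood apart from replicates B and C in many genes, and the counts of class II genes, their positions and their ratios are also given without it.

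Levels of different genes were compared per kilobase of annotated exons. In CSF3R-only cells Cd74 had by far the highest level, 152 ± 17.8 CPM per kb (SD, n = 4), followed by H2-Ab1 with 22.4 ± 4.38. H2-Eb1 at 10.5 ± 1.52, H2-DMb1 at 9.97 ± 1.15, H2-Aa at 9.79 ± 2.24 and H2-DMa at 8.07 ± 1.41 CPM per kb had levels close to each other. The differences between these genes, measured in the same samples, were not tested. H2-Oa had 6.75 ± 0.545 CPM per kb, H2-DMb2 1.59 ± 0.148, Ciita 0.368 ± 0.0679 and H2-Ob 0.305 ± 0.0465. Thus the H2-Oa level was well above that of its partner chain H2-Ob, although H2-DO needs both. In CEBPA-first cells the first 2 genes were again Cd74 with 45.1 ± 9.99 and H2-Ab1 with 9.02 ± 2.78 CPM per kb (n = 4). Behind them the order differed: H2-DMb1 at 7.05 ± 0.417, H2-DMa at 5.76 ± 0.584 and H2-Oa at 4.58 ± 0.503 now lay above H2-Aa at 2.62 ± 0.538 and H2-Eb1 at 2.43 ± 0.527 CPM per kb. With the length of the longest transcript in place of all exons, H2-Ab1 rose to 47.4 CPM per kb in CSF3R-only cells, and the order of the 4 genes with close levels changed. Ciita, at 0.584, then lay below H2-Ob at 0.615, with H2-Oa at 7.08 CPM per kb. The order in CEBPA-first cells was led by the same 2 genes, with H2-DMa at 9.91 before H2-DMb1 at 8.44.

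**Figure D1:**
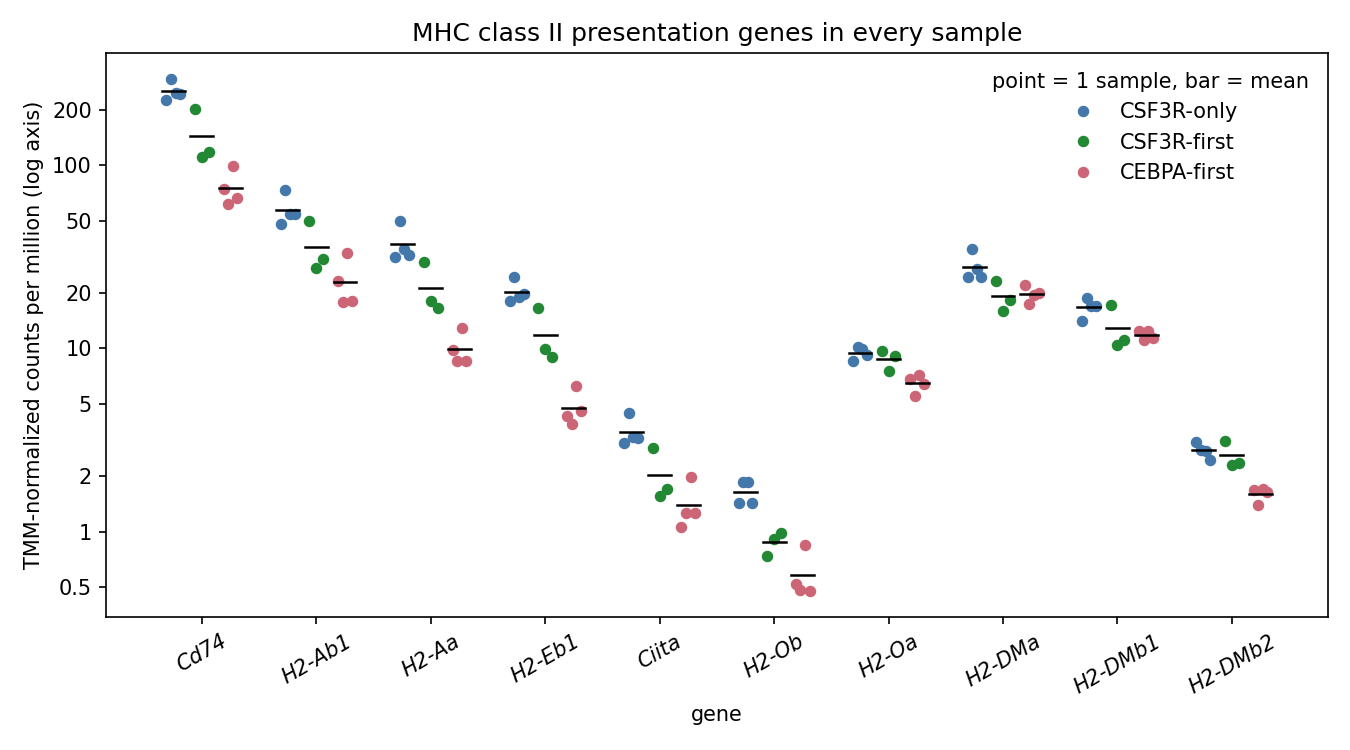
Level of the 10 genes in every sample, in TMM-normalized CPM on a log axis; each point is 1 sample, each bar the mean of a group (CSF3R-only n = 4, CSF3R-first n = 3, CEBPA-first n = 4). The CEBPA-first samples lie below all CSF3R-only samples for each of the 10 genes, for Cd74 at 61.9 to 99.6 against 229 to 298 CPM.

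The comparison of CEBPA-first with CSF3R-only cells sets cells with mutant CEBPA before mutant CSF3R against cells with mutant CSF3R alone. The groups also differ in the vector of mutant CSF3R and in how long it was expressed. These differences cannot be told apart from the presence of mutant CEBPA here. All 10 genes were lower in CEBPA-first cells. The 3 classical chain genes, Cd74, Ciita and H2-Ob were 2.48- to 4.33-fold lower, whereas the H2-DM genes and H2-Oa were 1.40- to 1.73-fold lower. By edgeR's quasi-likelihood test 6 of 10 genes met the threshold of an adjusted p under 0.05 and a log2 fold change above 1 in size, all of them lower. Over all genes tested 27% passed that threshold in either direction and 19% in the lower direction. At an adjusted p under 0.05 alone 10 of 10 were lower, against 36.6% of all genes tested, and the groups did not overlap for 10 of 10, against 34.5% lower without overlap over all. The median log2 fold change was -1.33 over the 10 genes and -0.00446 over all genes tested. The count of 6 did not change when any single sample was left out.

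Cd74 had 229, 298, 249 and 246 CPM in CSF3R-only replicates A to D, 203, 112 and 118 CPM in CSF3R-first replicates A to C, and 74.7, 61.9, 99.6 and 66.6 CPM in CEBPA-first replicates A to D. The 3 groups did not overlap, with CSF3R-first in between and its replicate A closest to CSF3R-only. Against CSF3R-only, Cd74 was 3.37-fold lower in CEBPA-first cells (log2 fold change -1.75 ± 0.19 SE, adjusted p = 3e-06, edgeR). Besides guiding class II chains, Cd74 is a surface receptor of the cytokine MIF.

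Ciita, the master regulator of the set, was measured at 3.05, 4.47, 3.29 and 3.23 CPM in CSF3R-only, at 2.86, 1.57 and 1.71 CPM in CSF3R-first, and at 1.06, 1.26, 1.98 and 1.26 CPM in CEBPA-first cells. CSF3R-only replicate B was the highest of all samples, and CSF3R-first and CEBPA-first samples overlapped. The log2 fold change between CEBPA-first and CSF3R-only was -1.34 ± 0.24 (adjusted p = 0.00019, edgeR). Its difference was smaller than those of Cd74, H2-Aa and H2-Eb1, though the differences between genes were not tested.

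H2-Aa, the alpha chain of I-A, had 31.8, 49.7, 35 and 32.2 CPM in CSF3R-only, 29.8, 18.1 and 16.5 CPM in CSF3R-first and 9.79, 8.54, 12.9 and 8.57 CPM in CEBPA-first cells. No CEBPA-first sample reached the lowest sample of either other group, and the log2 fold change against CSF3R-only was -1.91 ± 0.21 (adjusted p = 3e-06, edgeR). H2-Ab1, the beta chain of I-A, had 47.8, 73.7, 54.1 and 54.1 CPM in CSF3R-only, 49.7, 27.5 and 30.6 CPM in CSF3R-first and 23.3, 18.0, 33.2 and 18.1 CPM in CEBPA-first cells. Here CSF3R-first overlapped both other groups, through replicate A on one side and replicates B and C on the other. Against CSF3R-only the log2 fold change in CEBPA-first cells was -1.31 ± 0.22 (adjusted p = 0.00015, edgeR).

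H2-Eb1, the beta chain of I-E, showed the largest difference of the set, 4.33-fold. Its level was 18.1, 24.7, 19.0 and 19.7 CPM in CSF3R-only, 16.6, 9.94 and 8.94 CPM in CSF3R-first and 4.28, 3.87, 6.20 and 4.53 CPM in CEBPA-first cells, again without overlap between the 3 groups. The log2 fold change of CEBPA-first against CSF3R-only was -2.11 ± 0.20 (adjusted p = 8.9e-07, edgeR). C57BL/6 mice make no I-E alpha chain, since their H2-Ea gene is defective. That gene, annotated as H2-Ea-ps, had 3 counts in all 11 samples together, and H2-Eb2 had 6, so neither was tested.

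The H2-DM genes, whose product loads peptides, differed less. H2-DMa had 24.7, 34.9, 27.1 and 24.6 CPM in CSF3R-only, 23.3, 16.1 and 18.5 CPM in CSF3R-first and 22.3, 17.4, 19.6 and 20.1 CPM in CEBPA-first cells. The CEBPA-first samples lay within the range of CSF3R-first and just below CSF3R-only, with a log2 fold change of -0.48 ± 0.13 against the latter (adjusted p = 0.0052, edgeR). H2-DMb1 had 14.1, 18.8, 17.2 and 17 CPM in CSF3R-only, 17.3, 10.5 and 11.2 CPM in CSF3R-first and 12.4, 11.1, 12.5 and 11.4 CPM in CEBPA-first cells, with a log2 fold change of -0.50 ± 0.14 between the outer groups (adjusted p = 0.0062, edgeR). H2-DMb2, which encodes a second beta chain, had 3.09, 2.80, 2.76 and 2.45 CPM in CSF3R-only, 3.13, 2.31 and 2.37 CPM in CSF3R-first and 1.68, 1.40, 1.71 and 1.63 CPM in CEBPA-first cells. Of the 3 H2-DM genes it was the one in which CEBPA-first lay below every sample of both other groups, with a log2 fold change of -0.79 ± 0.14 against CSF3R-only (adjusted p = 0.00026, edgeR). The split between both beta chain genes is uncertain, because 51.9% of the H2-DMb2 transcript and 14.2% of the H2-DMb1 transcript lie in stretches of at least 100 bp with at least 97% identity to the other of the pair. Smaller parts of H2-DMb2 are as close to Baz2b and Rps6ka2.

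H2-Oa and H2-Ob, the chains of the H2-DM inhibitor H2-DO, differed from each other. H2-Oa had 8.55, 10.3, 9.96 and 9.20 CPM in CSF3R-only, 9.72, 7.57 and 9.09 CPM in CSF3R-first and 6.80, 5.49, 7.12 and 6.36 CPM in CEBPA-first cells. The log2 fold change of CEBPA-first against CSF3R-only was -0.56 ± 0.11 (adjusted p = 0.00046, edgeR). For H2-Ob 1.43, 1.86, 1.85 and 1.43 CPM were found in CSF3R-only, 0.731, 0.906 and 0.980 CPM in CSF3R-first and 0.513, 0.477, 0.845 and 0.472 CPM in CEBPA-first cells. CSF3R-first lay clear of CSF3R-only for H2-Ob but overlapped it for H2-Oa, and CEBPA-first was lower than CSF3R-only with a log2 fold change of -1.52 ± 0.22 for H2-Ob (adjusted p = 4e-05, edgeR). Of the exon bases of H2-Oa 22.8% are shared with BC051537 and of those of H2-DMa 10.4% with Brd2, each on the other strand. Whether the counting used strand is not given in the sources used here.

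**Figure D2:**
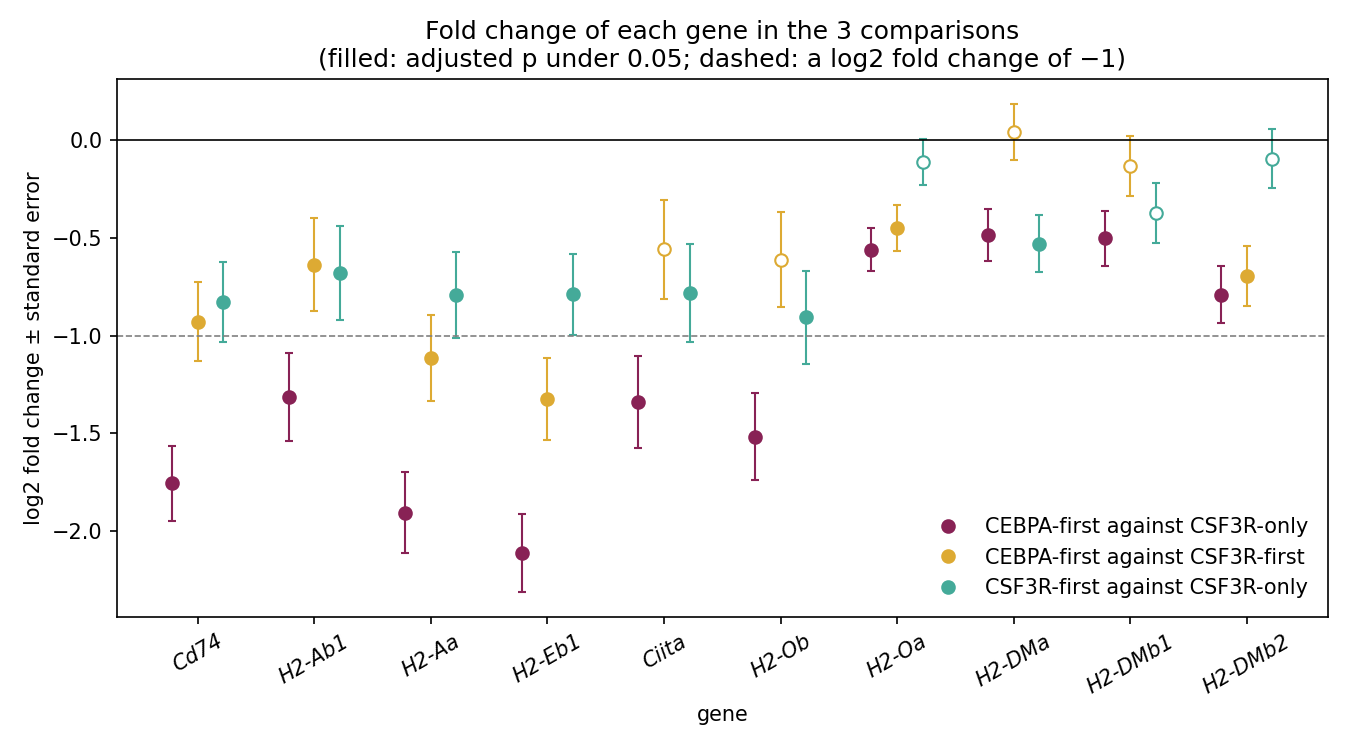
Log2 fold change of each gene with its standard error in the 3 comparisons; filled points have an adjusted p under 0.05 by edgeR's quasi-likelihood test, and the dashed line marks a log2 fold change of -1. H2-Eb1, H2-Aa and Cd74 lie lowest in CEBPA-first against CSF3R-only, at -2.11, -1.91 and -1.75, and H2-DMa lies near 0 in CEBPA-first against CSF3R-first, at 0.04.

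The comparison of CEBPA-first with CSF3R-first cells sets the 2 orders of the mutations against each other when both are present. The vector of each mutant and the length of its expression differ along with the order and cannot be told apart from it. H2-Eb1 and H2-Aa were 2.51- and 2.16-fold lower in CEBPA-first cells and were the 2 of 10 genes past the threshold, against 12.8% of all genes tested in either direction and 10.3% in the lower direction. The log2 fold change was -1.33 ± 0.21 for H2-Eb1 (adjusted p = 0.00033, edgeR) and -1.11 ± 0.22 for H2-Aa (adjusted p = 0.0014, edgeR). At an adjusted p under 0.05 alone 6 genes were lower, against 24.3% of all genes tested, and 5 were lower without overlap between the groups, against 24.8%. Besides H2-Eb1 and H2-Aa these 6 were Cd74 (-0.93 ± 0.20), H2-DMb2 (-0.70 ± 0.15), H2-Ab1 (-0.64 ± 0.24) and H2-Oa (-0.45 ± 0.12), with adjusted p of 0.0025, 0.0029, 0.042 and 0.0074 by edgeR. The H2-Ab1 call was lost in 10 of 18 settings, DESeq2 among them (adjusted p = 0.0752). Ciita at -0.56 ± 0.26 (adjusted p = 0.088) and H2-Ob at -0.61 ± 0.24 (adjusted p = 0.055) missed it by edgeR's test. H2-DMa, at 0.04 ± 0.14 (adjusted p = 0.83), and H2-DMb1, at -0.13 ± 0.15 (adjusted p = 0.51), were the members nearest to 0 in edgeR's fit, and their sign depended on the settings. The median over the 10 genes was -0.62, against 0.000524 over all genes tested. Without CSF3R-first replicate A, 0 genes passed the threshold in edgeR's fit, with H2-Eb1 at -0.999 and H2-Aa at -0.80, against 10.7% of all genes tested in either direction and 8.47% in the lower direction. In that fit 5 were lower at an adjusted p under 0.05 alone, against 19.1% of all, 6 were lower without overlap, against 27.9%, and the median was -0.455.

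Between CSF3R-first and CSF3R-only cells, which share the CSF3R vector and differ in the later mutant CEBPA, 0 of 10 genes passed the threshold by edgeR or DESeq2, against 6.65% of all genes tested in either direction and 4.53% in the lower direction. At an unadjusted p under 0.05 by edgeR 8 of 10 were lower, at an adjusted p under 0.05 7 of 10, against 21.1% of all, and 6 were lower without overlap, against 21.4%. The log2 fold changes of these 7 were -0.91 ± 0.24 for H2-Ob, -0.83 ± 0.20 for Cd74, -0.79 ± 0.22 for H2-Aa, -0.79 ± 0.21 for H2-Eb1, -0.78 ± 0.25 for Ciita, -0.68 ± 0.24 for H2-Ab1 and -0.53 ± 0.15 for H2-DMa. DESeq2 called 6 in place of 7. The H2-Ab1 call was lost in 6 of 18 settings, that of Ciita in 3, that of H2-Aa in 2 and that of H2-DMa in 1. H2-DMb1 at -0.37 ± 0.15 (adjusted p = 0.069), H2-Oa at -0.11 ± 0.12 (adjusted p = 0.48) and H2-DMb2 at -0.09 ± 0.15 (adjusted p = 0.66) did not pass by edgeR. The median over the 10 genes was -0.73, against -0.02 over all genes tested. Without CSF3R-first replicate A, 4 genes passed the threshold, with Cd74 at -1.15, H2-Eb1 at -1.11, H2-Aa at -1.10 and Ciita at -1.09, against 8.9% of all genes tested in either direction and 6.41% in the lower direction. At an adjusted p under 0.05 alone 8 were then lower, against 23.3% of all, 9 were lower without overlap, against 30.3%, and the median was -0.888. The 3 comparisons share samples, so their values stand side by side here and are no independent evidence of each other.

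Along the path from CSF3R-only (0) to CEBPA-first (1), the genes of the set differed in where CSF3R-first lay. On the log2 CPM scale its mean was at 0.391 for H2-Eb1, 0.430 for H2-Aa, 0.494 for Cd74, 0.528 for H2-Ab1, 0.597 for H2-Ob and 0.601 for Ciita. It was at 0.130 for H2-DMb2, 0.204 for H2-Oa, 0.805 for H2-DMb1 and 1.12 for H2-DMa, means over replicates that differed widely. Replicates A to C lay at -0.223, 0.328 and 0.284 for H2-DMb2, at -0.0678, 0.575 and 0.106 for H2-Oa, at -0.105, 1.35 and 1.17 for H2-DMb1 and at 0.511, 1.63 and 1.2 for H2-DMa. Without replicate A the mean was at 0.306 and 0.341 for H2-DMb2 and H2-Oa, at 0.518 to 0.799 for H2-Ob, Cd74, Ciita and the classical chains, and at 1.26 and 1.42 for H2-DMb1 and H2-DMa. Replicate A of CSF3R-first lay at 0.185 for Cd74 and at 0.135 to 0.205 for the classical chains and Ciita, while replicates B and C lay at 0.484 to 0.844 for the same 5 genes. Over the 4238 other genes past the threshold between the outer groups, the median position was 0.281 in replicate A, 0.528 in replicate B and 0.456 in replicate C. Replicate A was thus nearer to CSF3R-only than B and C in the class II genes and over the other genes alike. H2-Ob went the other way, with replicate A at 0.755, B at 0.555 and C at 0.481.

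The make-up of the set therefore differed between the groups. The ratio of H2-DMa to H2-Aa, from CPM within a sample, was 0.754 ± 0.0353 (SD, 4 samples) for CSF3R-only, 0.928 ± 0.174 (3 samples) for CSF3R-first and 2.05 ± 0.377 (4 samples) for CEBPA-first cells, and the CEBPA-first samples, at 1.52 or more, did not overlap the others. The ratio of H2-Oa to H2-Aa was 0.261 ± 0.0375, 0.431 ± 0.112 and 0.658 ± 0.0810 in the same order. The ratio of H2-Eb1 to H2-Ab1 went down, from 0.357 ± 0.0186 in CSF3R-only and 0.329 ± 0.0352 in CSF3R-first to 0.209 ± 0.0308 in CEBPA-first cells. Likewise the ratio of H2-Aa to H2-Ab1 was 0.646 ± 0.0354, 0.600 ± 0.0601 and 0.439 ± 0.0424, so that the chains of one molecule did not differ by equal amounts. Without CSF3R-first replicate A the ratios of replicates B and C were 0.886 and 1.12 for H2-DMa to H2-Aa, 0.417 and 0.549 for H2-Oa to H2-Aa, 0.362 and 0.292 for H2-Eb1 to H2-Ab1, and 0.660 and 0.540 for H2-Aa to H2-Ab1. The ratios were picked after the values had been seen and are given without a test.

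Samples of one group also differed in these genes together. As deviations from the group mean on the log2 CPM scale, the largest for Cd74 were 0.55 in CSF3R-first replicate A and 0.42 in CEBPA-first replicate C. Over the 11 samples, which share library and depth with each gene, the deviation of Cd74 had a Pearson r of 0.972 with H2-Ab1, 0.961 with H2-Eb1, 0.947 with H2-Aa and 0.903 with Ciita. Spearman's rho was 0.955, 0.855, 0.882 and 0.636, and r without the 2 farthest samples was 0.953, 0.869, 0.887 and 0.703. For H2-DMb1, H2-Oa, H2-DMb2 and H2-DMa r was 0.880, 0.790, 0.718 and 0.714, and without those 2 samples 0.879, 0.746, 0.440 and 0.845. H2-Ob stood apart with r of 0.299. Over the 15693 other tested genes the median r with Cd74 was -0.02, and 3.66% were above 0.8. Of monocyte and macrophage markers, Cd68 had r of 0.872, C1qb 0.825 and Csf1r 0.707, and without the 2 farthest samples 0.699, 0.585 and 0.341. These correlations are descriptions, with no test.

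**Figure D3:**
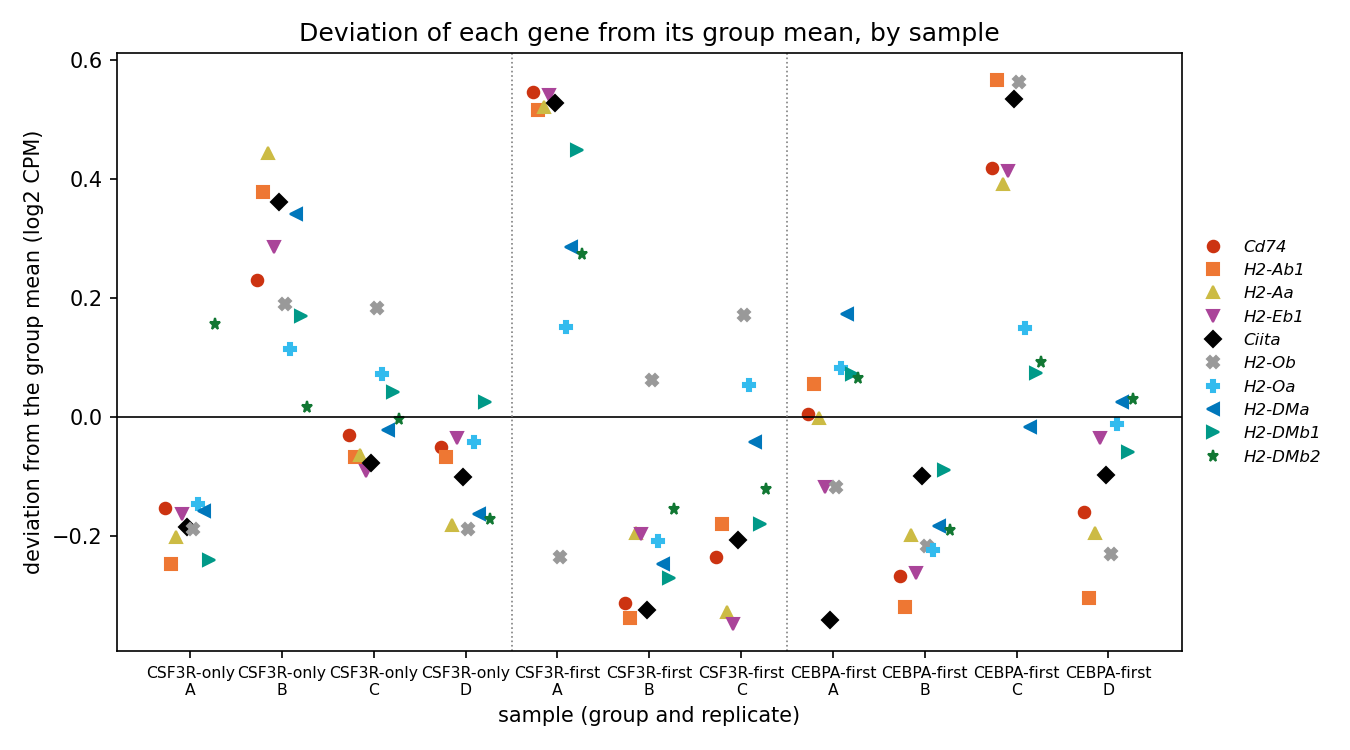
Deviation of each gene from the mean of its group in log2 CPM, by sample, with 1 marker for each gene and dotted lines between the groups. In CSF3R-first replicate A all genes but H2-Ob lie above 0, Cd74 at 0.55, and in CEBPA-first replicate C Cd74 lies at 0.42 while H2-DMa lies near 0.

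Of the 10 genes, 8 lie on chromosome 17 between H2-Oa and H2-Eb1, from position 34092340 to 34316674 of GRCm38 (224.3 kb). Cd74 lies on chromosome 18 (60803848 to 60812652) and Ciita on chromosome 16 (10480059 to 10528418). By position the 8 fall on both sides of a block with the class I genes Psmb9, Tap1, Psmb8 and Tap2. H2-Oa, H2-DMa, H2-DMb2 and H2-DMb1 lie on one side and H2-Ob, H2-Ab1, H2-Aa and H2-Eb1 on the other. The 4 genes of the second side were the 4 of these 8 past the threshold between CEBPA-first and CSF3R-only cells. The stretch holds 12 other annotated genes, of which 9 were in the table and 6 were tested. None of these 6 passed the threshold by edgeR, and at an adjusted p under 0.05 alone 1 was higher and 2 were lower, the 3 genes with an unadjusted p under 0.05. Over all genes tested 27% passed the threshold, and at an adjusted p under 0.05 alone 35.4% were higher and 36.6% lower. Brd2, a chromatin reader that overlaps H2-DMa, was at 0.13 ± 0.05, the peptide transporter genes Tap1 and Tap2 at -0.09 ± 0.07 and -0.42 ± 0.06, and the immunoproteasome genes Psmb8 and Psmb9 at 0.12 ± 0.08 and -0.25 ± 0.09. That the class II genes split by side was noticed after the values had been seen.

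**Figure D4:**
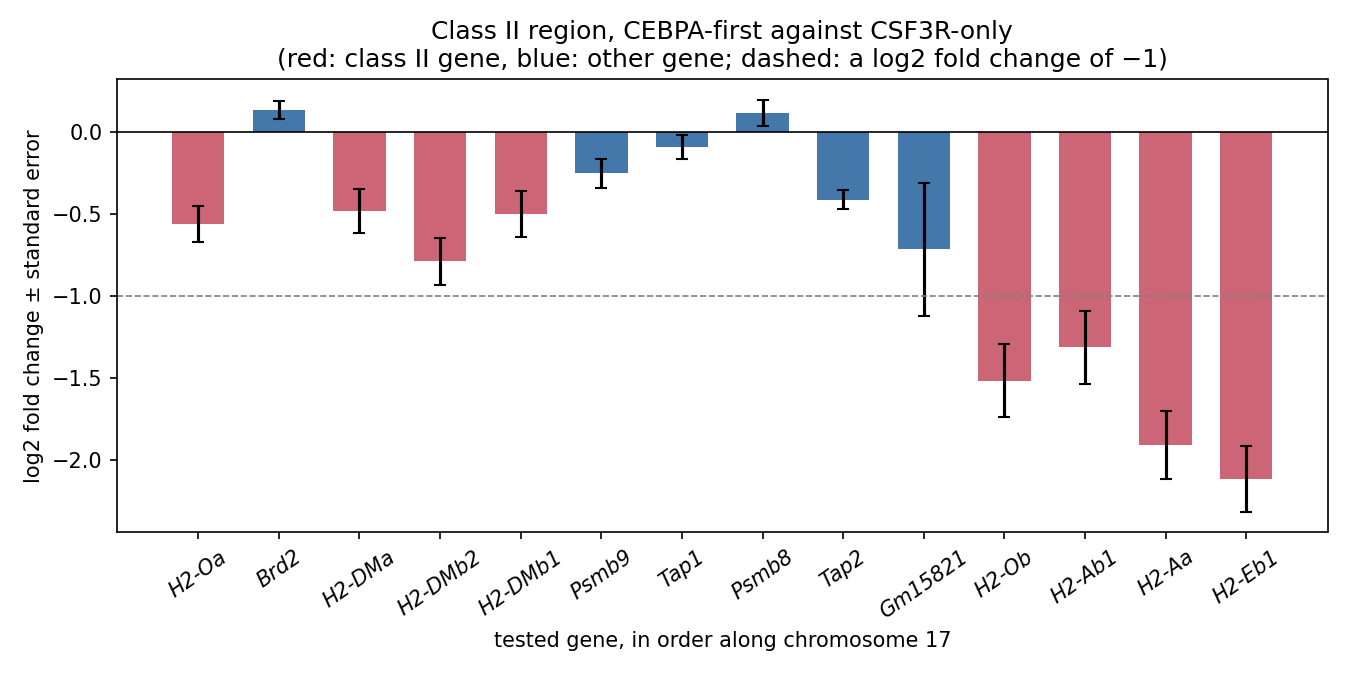
Log2 fold change of CEBPA-first against CSF3R-only with its standard error for the tested genes between H2-Oa and H2-Eb1, in their order along chromosome 17 but not to scale; class II genes are red, other genes blue, and the dashed line marks -1. The class II genes range from -2.11 to -0.48 and the others from -0.72 to 0.13.

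The factors that bind the class II promoters did not differ by as much. Of the 7 genes of RFX, NF-Y and CREB, 0 passed the threshold by edgeR or DESeq2 between CEBPA-first and CSF3R-only cells, with 5 higher and 1 lower at an adjusted p under 0.05 and 6 at an unadjusted p under 0.05 by edgeR, and their median log2 fold change was 0.17. Over all genes tested 27% passed the threshold, and at an adjusted p under 0.05 alone 35.4% were higher and 36.6% lower. Rfx5 was at 0.28 ± 0.08, Rfxap at 0.17 ± 0.07 and Rfxank at -0.30 ± 0.08, the 3 subunits whose loss abolishes class II expression in patients. The summed level of the 7 genes was 240 to 257 CPM in CSF3R-only, 261 to 274 CPM in CSF3R-first and 283 to 311 CPM in CEBPA-first cells. Among 13 genes of interferon gamma signalling and lineage factors upstream of Ciita, 3 were past the threshold, all lower, against 19% of all genes tested in the lower direction. They were Prdm1 (-1.87 ± 0.11), a repressor of Ciita in plasma cells, and the interferon gamma receptor chains Ifngr1 (-1.17 ± 0.12) and Ifngr2 (-1.09 ± 0.09). At an adjusted p under 0.05 alone 9 were lower and 1 was higher, against 36.6% and 35.4% of all. Irf1, which interferon gamma induces, was at -0.69 ± 0.09 and the myeloid factor gene Spi1 at -0.96 ± 0.10. Irf8, which is needed for monocytes and dendritic cells, was at 0.04 ± 0.09 (adjusted p = 0.72, edgeR).

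Of 10 genes of endosomal processing and turnover, 6 were past the threshold between CEBPA-first and CSF3R-only cells, all lower, with a median of -1.17, and at an adjusted p under 0.05 alone 9 were lower by edgeR. Over all genes tested 19% were lower past the threshold, and at an adjusted p under 0.05 alone 36.6% were lower and 35.4% higher. March1, a ubiquitin ligase that removes class II from the surface, was at -2.81 ± 0.17, Ctsd at -1.87 ± 0.13, Ctsb at -1.86 ± 0.20, Ctss, the protease that trims the invariant chain, at -1.54 ± 0.21 and Lgmn at -1.07 ± 0.20. Ifi30, a reductase for antigens, was at 0.15 ± 0.10 (adjusted p = 0.19, edgeR). The 6 genes of costimulation were all past the threshold and lower, with Cd40 at -2.86 ± 0.32, Cd80 at -2.53 ± 0.17, Cd274, the gene of PD-L1, at -2.21 ± 0.06 and Cd86 at -1.24 ± 0.13. Of the 4 genes around Cd74 as a receptor of MIF, Cxcr2 (-2.92 ± 0.20) and Cd44 (-1.28 ± 0.09) were lower past the threshold. The other 2 were higher at an adjusted p under 0.05 alone, Mif itself at 0.75 ± 0.11 (adjusted p = 3.4e-05, edgeR) and Cxcr4 at 0.16 ± 0.06 (adjusted p = 0.02, edgeR).

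In CEBPA-first against CSF3R-first cells the counts past the threshold, all lower, were 0 of 7 for the promoter complex, 1 of 13 for the factors upstream of Ciita, 3 of 10 for endosomal processing, 3 of 6 for costimulation and 1 of 4 for the genes around Cd74 as a MIF receptor. Their medians were 0.11, -0.37, -0.46, -1.01 and -0.34, and over all genes tested 10.3% passed in the lower direction. In CSF3R-first against CSF3R-only cells the counts were 0, 0, 1, 1 and 0, against 4.53% of all genes tested in the lower direction, with medians of 0.11, -0.33, -0.63, -0.70 and -0.22. March1 (-1.03 ± 0.17) and Cd80 (-1.03 ± 0.18) were the genes past the threshold in the last comparison, and both were under it with library size alone as the scaling or without the filter on low counts. Without CSF3R-first replicate A the counts, in the same order of lists, were 0, 1, 2, 3 and 1 in CEBPA-first against CSF3R-first cells and 0, 0, 2, 1 and 1 in CSF3R-first against CSF3R-only cells. Over all genes tested 8.47% were then lower past the threshold in the former and 6.41% in the latter comparison. The medians without it were 0.15, -0.28, -0.25, -0.95 and -0.25 in the former and 0.11, -0.44, -0.93, -0.85 and -0.30 in the latter comparison. With all samples the counts of 0 were by edgeR and DESeq2 alike. At an unadjusted p under 0.05 by edgeR they were 3 of the promoter complex in CEBPA-first against CSF3R-first cells, and 1 of the promoter complex, 10 of the factors upstream of Ciita and 3 of the genes around Cd74 as a MIF receptor in CSF3R-first against CSF3R-only cells.

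Class I presentation, which serves CD8+ T cells in nearly all cell types, differed less in CEBPA-first against CSF3R-only cells. Of 16 genes 1 was past the threshold, the heavy chain gene H2-D1 at -1.16 ± 0.09 (3 where only genes with 10 counts in every sample were kept), and at an adjusted p under 0.05 alone 7 were lower and 3 higher, with a median of -0.16. Over all genes tested 19% were lower past the threshold, and at an adjusted p under 0.05 alone 36.6% were lower and 35.4% higher. The heavy chain gene H2-K1 was at -0.64 ± 0.07, the light chain gene B2m at -0.97 ± 0.10, and Nlrc5, the class I counterpart of Ciita, at -0.23 ± 0.10 (adjusted p = 0.058, edgeR). In CEBPA-first against CSF3R-first cells and in CSF3R-first against CSF3R-only cells 0 of the 16 genes were past the threshold by edgeR or DESeq2, with 2 higher and 4 lower, and 3 higher and 5 lower, at an adjusted p under 0.05 by edgeR and 7 and 9 at an unadjusted p under 0.05. Over all genes tested 12.8% and 6.65% passed the threshold in these comparisons. At an adjusted p under 0.05, 24% were higher and 24.3% lower in the former, and 21.6% and 21.1% in the latter. Without CSF3R-first replicate A 0 of the 16 passed by edgeR as well, with 2 higher and 5 lower, and 3 higher and 6 lower, at an adjusted p under 0.05, and 9 in each comparison at an unadjusted p under 0.05. Over all genes tested 10.7% and 8.9% then passed the threshold, and 19.1% and 23.3% were lower at an adjusted p under 0.05. The class I and class II lists were not tested against each other.

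**Figure D5:**
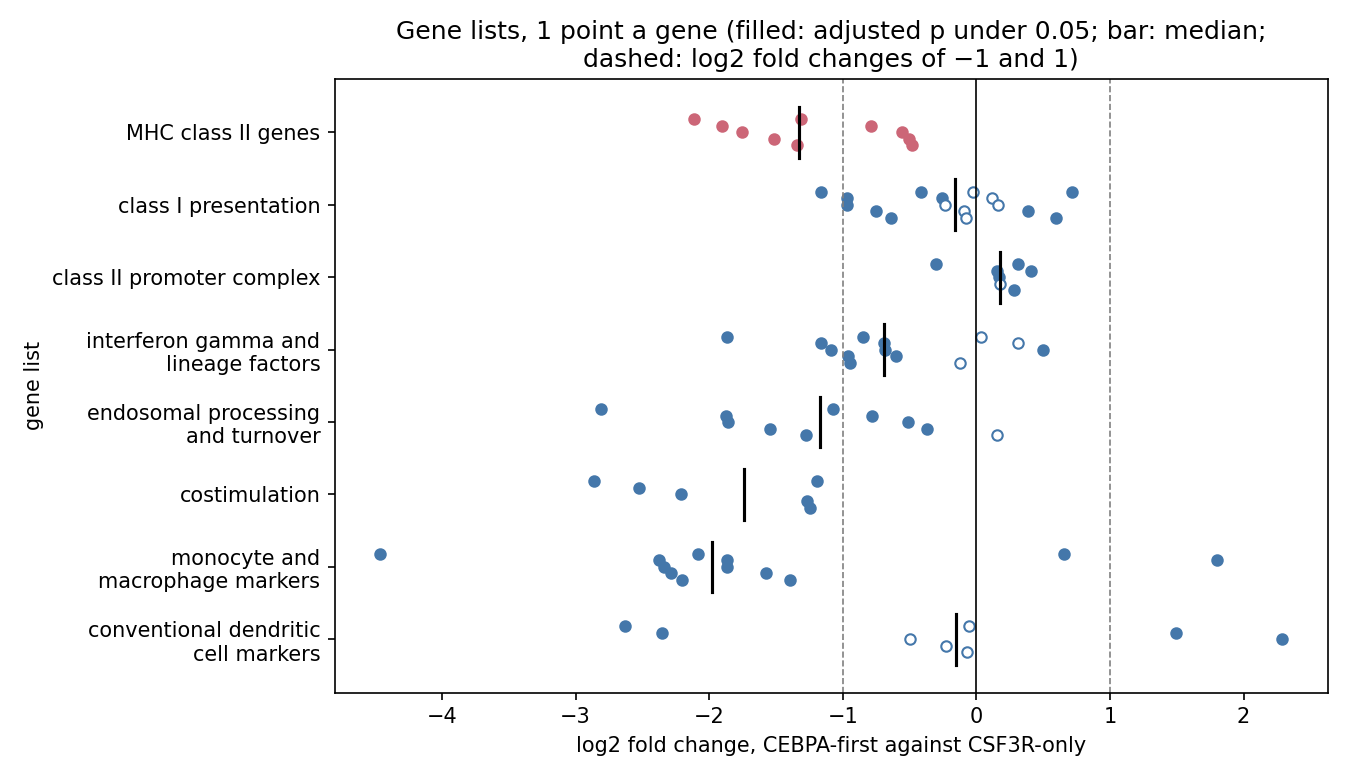
Log2 fold change of CEBPA-first against CSF3R-only for the genes of 8 lists, 1 point a gene; filled points have an adjusted p under 0.05, black bars are medians and dashed lines mark -1 and 1. The median is -1.33 for the class II genes, -0.16 for class I presentation, 0.17 for the promoter complex and -1.98 for monocyte and macrophage markers.

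Markers of cell types that express class II were read in the same samples. Of 12 markers of monocytes and macrophages 10 were lower and 1, Cd163, was higher past the threshold between CEBPA-first and CSF3R-only cells, with a median of -1.98 and with Csf1r at -2.34 ± 0.20 and Adgre1 at -2.28 ± 0.17. Over all genes tested 19% were lower and 8.07% higher past it. Fcgr1 was higher at an adjusted p under 0.05 alone by edgeR, at 21.4 ± 2.88 CPM (SD) in CSF3R-only and 33.7 ± 2.66 CPM in CEBPA-first cells. The summed level of the 12 markers was 2752 to 3500 CPM in CSF3R-only, 1434 to 2511 CPM in CSF3R-first and 668 to 1007 CPM in CEBPA-first cells, and none of the 12 was at 0. The summed level of the class II genes, 381 to 519, 206 to 356 and 129 to 196 CPM, moved in the same direction, and the part of these cells in the class II difference was not tested. In such bulk samples fewer cells of a type and less RNA per cell cannot be told apart. The ratio of Cd74 to a marker depended on the marker: in all CEBPA-first samples it was above the CSF3R-only samples for 3 of the 12 (Csf1r, Adgre1 and Cx3cr1) and below them for 2 (Fcgr1 and Cd163), and for the other 7 the groups overlapped.

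B cell markers were low. The sum of 10 markers was 5.14 to 5.74 CPM in CSF3R-only, 7.95 to 10.4 CPM in CSF3R-first and 8.43 to 11.6 CPM in CEBPA-first cells, 6 of the 10 had at most 3 counts in every sample, and the defining gene Pax5 had 1 count in all samples together. Of the 4 that were tested, Cd79a (-2.21) and Cr2 (-1.25) were lower and Cd22 (1.76) was higher past the threshold between CEBPA-first and CSF3R-only cells, with Cd22 at 1.14 ± 0.120 CPM (SD) in CSF3R-only and 3.85 ± 1.22 CPM in CEBPA-first cells, and Cd79b, at 0.82, was higher at an adjusted p under 0.05 alone by edgeR. Markers of conventional dendritic cells summed to 154 to 191 CPM in CSF3R-only, 161 to 172 CPM in CSF3R-first and 141 to 185 CPM in CEBPA-first cells. Most of that sum was Wdfy4, with means of 153, 150 and 147 CPM in the same order. Among the 8 tested of 10, Zbtb46 (-2.35 ± 0.35) and Itgax (-2.63 ± 0.22) were lower and Flt3 (1.495 ± 0.23), which progenitors also express, and Clec10a (2.29 ± 0.12) were higher in CEBPA-first against CSF3R-only cells, while Xcr1 was at -0.07 ± 0.36 (adjusted p = 0.87, edgeR). Markers of plasmacytoid dendritic cells summed to 80.9 to 87.8, 95.0 to 103 and 126 to 128 CPM in the 3 groups, with 11 counts of Siglech in all. That sum is led by Tcf4, which was higher (1.08), while 3 of the 6 tested markers, Pacsin1 (-3.10), Spib (-2.36) and Ccr9 (-1.21), were lower past the threshold between CEBPA-first and CSF3R-only cells and the median was -0.81. T cell markers summed to at most 5.17 CPM in any sample, and 2 of the 7, Cd3e and Cd8a, were at 0. The markers of neutrophils, which hardly express class II unless stimulated, were lower as well: 7 of 8 passed the threshold between CEBPA-first and CSF3R-only cells, with sums of 23111 to 28336, 13408 to 23185 and 6112 to 8160 CPM. Over all genes tested 19% were lower and 8.07% higher past the threshold between CEBPA-first and CSF3R-only cells. The part of these other cell types was not tested.

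The genes outside the set whose level followed that of Cd74 most closely over the 11 samples, among 10928 genes whose average log2 CPM was 1 or more, were Slc15a3 (r = 0.992), a lysosomal transporter of peptides and histidine, Smad6 (0.991), an inhibitor of BMP signalling, Prmt2 (0.990), an arginine methyltransferase, Ripk3 (0.989), a kinase of necroptosis, and Pld3 (0.987), a lysosomal nuclease. Of the set, H2-Aa had r of 0.992, H2-Eb1 0.990, H2-Ab1 0.980, Ciita 0.969, H2-Oa 0.922, H2-Ob 0.910, H2-DMb2 0.908, H2-DMb1 0.867 and H2-DMa 0.771. As r over samples of 3 groups is led by the group means, 2284 genes (20.9%) had r above 0.9, and the values describe a shared order of the samples.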

How the data were processed

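Total RNA of the sorted cells was made into libraries with a low-input kit and read as single reads. Per the study's methods the authors trimmed reads with Trimmomatic and aligned them with STAR, and the deposited values are raw counts, whole numbers for each gene. The submitters' processing notes name mm10. The counting tool, the annotation and the use of strand are not given in the sources used here. Symbols were matched for 51633 of 51912 identifiers.

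The filter filterByExpr kept 15703 genes, library sizes were scaled by TMM, and a single model of the 3 groups with no covariate was tested with the quasi-likelihood test of edgeR 4.0.16 (R 4.3.3), with Benjamini-Hochberg adjustment over all genes tested. Standard errors were derived from the log2 fold change and edgeR's F statistic. "Lower" or "higher" without a further word means an adjusted p under 0.05, and the threshold adds a log2 fold change above 1 in size. Log2 CPM used a prior count of 2. On counts simulated for CEBPA-first against CSF3R-only with 15703 genes, the test found 93 of 100 genes changed 2-fold, 100 of 100 changed 4-fold, and called 16 unchanged genes. The simulation drew genes independently with edgeR's own dispersions and changed no genes of low level. Samples that stand apart in many genes at once were not simulated, so recovery in the real data can be lower. Positions and exons come from GENCODE on GRCm38, the same build as mm10, and near-identical stretches from BLAST 2.17.0. Figures were drawn with matplotlib 3.10.9.

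The genes and lists were chosen with earlier results of these data known. All 10 class II genes are named. Of the pathway lists, the genes past the threshold with the largest differences in CEBPA-first against CSF3R-only (up to 3 in each direction) and a fixed set of regulators and processing genes are named, and the 5 genes most like Cd74; some list members are not reported here. Cebpa, Csf3r and defining markers of the cell types other than neutrophils were named by rule, other markers after their values were seen. Alternatives were DESeq2 1.42.0, RLE or library size scaling, other count filters, only the compared groups, a replicate block, glmTreat and each sample left out. No 2 replicates of a group agreed within counting noise (chi-square per degree of freedom 9.11 to 99.1). The limits for a gene without counts cover counting error only.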

Additional observations from a re-analysis of the deposited data

Results flagged for a closer look

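The level of Ciita in CSF3R-only replicate B was 4.47 CPM, with the nearest of the other 3 samples at 3.29 CPM. That gap was 0.831 of the whole range of the group, above the limit of Dixon's test for 4 samples. The level of H2-Ob in CEBPA-first replicate C was 0.845 CPM, with the nearest sample at 0.513 CPM and a gap of 0.890 of the range. Both were the highest sample of their group. Of the 20 groups of 4 samples tested in this way 2 stood out, where chance gives about 1.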

How the results depend on the processing

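In CEBPA-first against CSF3R-only cells 6 class II genes passed the threshold with any 1 sample left out (6 to 6) and 10 with an adjusted p under 0.05 alone. In CEBPA-first against CSF3R-first cells 2 genes passed, 6 with an adjusted p alone, 0 with glmTreat, which tests against the fold threshold itself and called 5.09% of all genes, and 0 to 3 with 1 sample left out. The 0 came without CSF3R-first replicate A, where H2-Aa was at -0.80 and H2-Eb1 at -0.999. In CSF3R-first against CSF3R-only cells 0 passed, 7 with an adjusted p alone, and 0 to 4 with 1 sample left out. The 4 came without the same replicate. The cause was not tested. DESeq2 and the other scalings, filters and choices of samples gave the counts 6, 2 and 0 within 1.5 times. H2-Ab1 crossed an adjusted p of 0.05 in 10 of 18 settings in CEBPA-first against CSF3R-first cells (0.00729 to 0.261) and in 6 of 18 in CSF3R-first against CSF3R-only cells (0.00315 to 0.156). In CEBPA-first against CSF3R-first cells Ciita and H2-Ob each crossed it in 2 settings, and in CSF3R-first against CSF3R-only cells Ciita did in 3, H2-Aa and H2-DMb1 each in 2 and H2-DMa in 1. H2-DMa and H2-DMb1 changed sign in 2 and 1 settings in CEBPA-first against CSF3R-first cells, always with an adjusted p of 0.196 or more.

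With the replicate letter as a block the counts were 6, 2 and 0, as without it, and 1 of the 4 genes around Cd74 as a MIF receptor in place of 0 passed in CSF3R-first against CSF3R-only cells. In CEBPA-first against CSF3R-first cells the block left 2 in place of 3 of the 10 endosomal genes past the threshold, and 5 in place of 6 class II genes at an adjusted p alone. Samples of the same letter deviated together only in part: the correlation of their deviations was 0.0629 to 0.362 over 4 pairs, -0.107 to 0.287 over 3 and 0.0869 to 0.314 over 3, so the letters were not taken as pairs. H2-Ob, H2-DMb2 and Ciita had the lowest counts of the class II genes, and how far depth limits each gene was not tested.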
